A study of Caenorhabditis elegans with 8 samples.

Results

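Isoprenoid and ubiquinone synthesis was followed through 7 genes of Caenorhabditis elegans: hmgs-1, hmgr-1 and fdps-1 of the mevalonate pathway, and coq-1, coq-2, coq-3 and clk-1 of ubiquinone synthesis. They are 7 of the 17118 genes represented on the array, taken by symbol, each through the brightest of its probe sets by mean log2 signal. Whole adult worms of the strain N2 were compared in 4 groups of 2 arrays: fasted and deprived of cholesterol, fed and deprived, fasted and given cholesterol, fed and given cholesterol. Deprivation began at hatching. From young adulthood all groups sat on plates containing FUDR, which blocks the production of progeny, and all were collected on day 4 of adulthood. The labels conflict on the fast, giving 24 h in the source names and 48 h starting on day 2 of adulthood in the treatment protocol, so its length is not known here. The 2 replicates of a group are described as independent, and pooling of animals and shared culture days are not given.

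The mevalonate pathway turns acetyl-CoA into isoprenoid diphosphates. In mammals it ends mainly in cholesterol, and a shortage of sterol raises transcription of its enzymes through the factor SREBP. Nematodes lack the branch that leads to sterols and take up sterol with the diet, but keep the earlier steps, which supply prenyl groups for proteins, dolichol, and the side chain of ubiquinone, the electron carrier of the mitochondrial respiratory chain. The comparison over cholesterol states therefore asks whether a pathway without its sterol end responds to sterol deprivation at the transcript level.

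Values are log2 of the normalised signal plus 1, on which the array-wide median of mean signals was 6.13 and the lower quartile 4.69. All 7 probe sets lay above that median on every array, between 7.58 and 9.97. Replicates correlated across probe sets at r = 0.992 to 0.994 and arrays of different groups at 0.972 to 0.992. Changes are differences of group means with their standard error (SE), n = 2 arrays a group, and "rose" or "fell" is kept for an adjusted p under 0.05 in limma. SEs, intervals and these words come from the fit without the replicate block, which leaves out the pairing of samples by replicate number described under processing.

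In the fit of group means, none of the 7 genes rose or fell with cholesterol deprivation; with the replicate number as a block, coq-1 passed in the average over feeding states (adjusted p = 0.0345). Averaged over feeding states, with 4 arrays against 4, 0 of 7 rose or fell, where 4.10% of all 22548 probe sets were called; with the block it was 1 of 7, against 9.17%. In fed worms the count was 0 of 7 against 1.21% of all probe sets, and in fasted worms 0 of 7 against 1.10%. At an unadjusted p under 0.05 limma listed 1 gene in the average (coq-1), 0 in fed worms and 1 in fasted worms (coq-1), where 16.6%, 13.7% and 14.0% of all probe sets passed. The median change of the 7 genes in the average was 0.04, against -0.001 for all probe sets.

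Hydroxymethylglutaryl-CoA synthase, encoded by hmgs-1, makes the substrate of the pathway's committed step. Its signal was 7.87 and 7.88 in fasted deprived worms and 7.90 and 7.62 in fed deprived worms, against 8.44 and 8.01 in fasted worms given cholesterol and 8.15 and 7.70 in fed worms given cholesterol. Both fasted deprived arrays lay below both fasted arrays with cholesterol, while the fed groups overlapped. The average change with deprivation was -0.26 ± 0.14 (adjusted p = 0.443).

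Hydroxymethylglutaryl-CoA reductase, encoded by hmgr-1, catalyses the committed step and is the target of statins. Its signal was 8.08 and 8.46 in fasted deprived worms and 8.25 and 8.47 in fed deprived worms, against 8.14 and 8.34 in fasted worms given cholesterol and 8.54 and 8.66 in fed worms given cholesterol. The fed deprived arrays were the lower pair in the fed comparison and did not overlap with their counterparts; in fasted worms the groups overlapped. The average change was -0.11 ± 0.11 (adjusted p = 0.764), and the change in fasted worms, 0.03, turned to -0.03 with cyclic loess between arrays.

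Farnesyl diphosphate synthase, encoded by fdps-1, makes the branch point for prenylation, dolichol and quinone side chains. Its signal was 9.29 and 9.52 in fasted deprived worms and 9.60 and 9.85 in fed deprived worms, against 9.09 and 9.35 in fasted worms given cholesterol and 9.46 and 9.97 in fed worms given cholesterol. The cholesterol states overlapped in both feeding states. The average change was 0.10 ± 0.14 (adjusted p = 0.833). The probe sets of fdps-1 and coq-3 are of the kind that the array's design marks as matching more than 1 transcript, so other transcripts may add to their signal.

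COQ-1 is the polyprenyl diphosphate synthase that builds the ubiquinone side chain. The coq-1 signal was 8.12 and 8.39 in fasted deprived worms and 8.66 and 8.81 in fed deprived worms, against 8.78 and 8.73 in fasted worms given cholesterol and 8.82 and 8.99 in fed worms given cholesterol. The fasted deprived arrays were the lowest pair of the 8, and within each feeding state both deprived arrays lay below both arrays with cholesterol. In fasted worms deprivation changed the signal by -0.50 ± 0.13 (0.708-fold, 95% interval 0.574 to 0.873, adjusted p = 0.168), and on average by -0.34 ± 0.09 (adjusted p = 0.106). Neither passed the threshold in that fit. With the replicate block the same average change had an adjusted p of 0.0345 and the change in fasted worms one of 0.0535.

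COQ-2 is the polyprenyl transferase that joins the side chain to the ring. The coq-2 signal was 8.52 and 8.63 in fasted deprived worms and 8.69 and 8.94 in fed deprived worms, against 8.31 and 8.50 in fasted worms given cholesterol and 8.41 and 8.91 in fed worms given cholesterol. Deprived arrays were the higher pair among fasted worms without overlap, and overlapped among fed worms. The average change was 0.17 ± 0.13 (adjusted p = 0.641).

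COQ-3 is an O-methyltransferase of the ring. The coq-3 signal was 7.71 and 7.76 in fasted deprived worms and 7.86 and 7.72 in fed deprived worms, against 7.76 and 7.70 in fasted worms given cholesterol and 7.86 and 7.58 in fed worms given cholesterol. All groups overlapped, and the 4 group means lay within 0.07 of each other. The average change was 0.04 ± 0.09 (adjusted p = 0.911).

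CLK-1 hydroxylates demethoxyubiquinone near the end of the route, and mutants of clk-1 develop slowly and live long. The clk-1 signal was 8.77 and 8.82 in fasted deprived worms and 8.69 and 9.03 in fed deprived worms, against 8.88 and 8.72 in fasted worms given cholesterol and 8.43 and 8.79 in fed worms given cholesterol. The cholesterol states overlapped in both feeding states, and the lowest array was 1 of the fed worms given cholesterol. The average change was 0.12 ± 0.11 (adjusted p = 0.720).

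**Figure D1:**
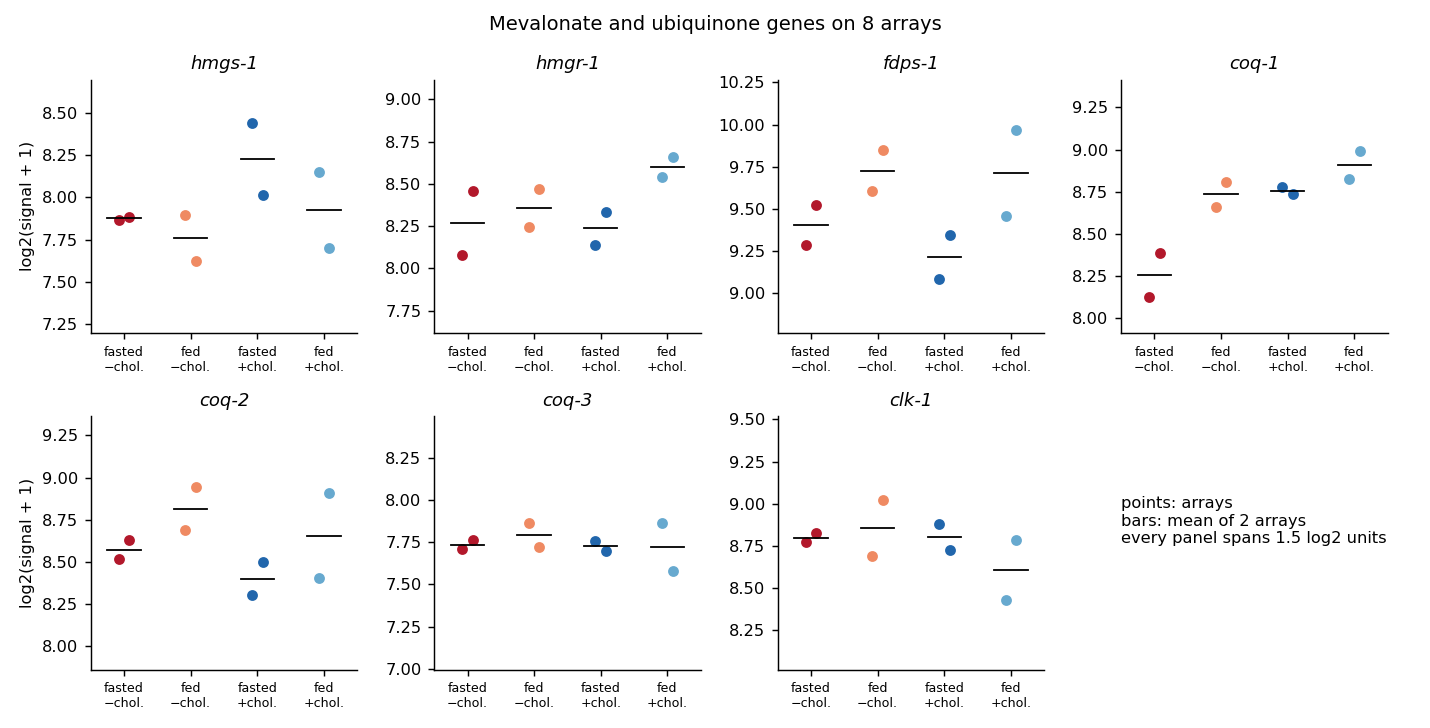
Log2(signal + 1) of the 7 genes (vertical axes, each spanning 1.5 log2 units) in fasted and fed worms without (−chol.) and with (+chol.) cholesterol; points are arrays and bars are means of 2 arrays. For coq-1 the fasted deprived pair, at 8.12 and 8.39, lies below the other 6 arrays, while the 4 groups of coq-3 share the range of 7.58 to 7.86.

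Read as folds, the 95% intervals of the average deprivation effect ran at their widest from 0.665 for hmgs-1 to 1.38 for coq-2. This bounds the changes only on the probe sets that represent the genes and in the fit of group means. On a second coq-1 probe set, described below, the interval ran lower, from 0.499 to 0.825. Groups without overlap between deprived and undeprived arrays were seen for 2 of 7 genes in fed worms (hmgr-1 and coq-1, both lower), where 47.4% of all probe sets did not overlap. In fasted worms they were seen for 3 of 7 (hmgs-1 and coq-1 lower, coq-2 higher), where 44.9% did not. Over 4 deprived and 4 undeprived arrays, 0 of 7 genes were without overlap, against 6.04% of all probe sets.

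In the fit of group means none of the 7 rose or fell with fasting either, on the probe sets that represent them; with the replicate block fdps-1 and coq-1 passed. The count was 0 of 7 in the average over cholesterol states, where 10.6% of all probe sets were called, 0 of 7 in deprived worms against 2.91%, and 0 of 7 in worms given cholesterol against 5.16%. With the block the counts were 2 of 7 against 19.6%, 1 of 7 against 7.67% and 1 of 7 against 13.8%, in the same order. At an unadjusted p under 0.05 limma listed 2 genes in the average (fdps-1 and coq-1), 1 in deprived worms (coq-1) and 1 in worms given cholesterol (fdps-1), where 24.9%, 15.6% and 23.8% of all probe sets passed. In the average, 5 of 7 genes were lower in fasted worms, with a median change of -0.23, against a median of 0.03 for all probe sets. These comparisons use the same arrays as those on deprivation.

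Within the mevalonate steps the changes with fasting differed in sign. The average change was 0.21 ± 0.14 for hmgs-1 (adjusted p = 0.429) and -0.23 ± 0.11 for hmgr-1 (adjusted p = 0.269). For fdps-1 it was -0.41 ± 0.14 (0.753-fold, 95% interval 0.602 to 0.943, adjusted p = 0.114), with both fasted arrays below both fed arrays at each cholesterol state. In worms given cholesterol fdps-1 differed by -0.50 ± 0.20 (adjusted p = 0.182). With the replicate block these adjusted p were 0.00941 for the average and 0.0253 in worms given cholesterol.

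Among the ubiquinone genes, the average change of coq-1 with fasting was -0.32 ± 0.09 (0.804-fold, 95% interval 0.693 to 0.932, adjusted p = 0.0742). With cyclic loess between arrays it was -0.32 with an adjusted p of 0.0478, and with the replicate block the adjusted p was 0.0260, both past the threshold. In deprived worms coq-1 differed by -0.48 ± 0.13 (adjusted p = 0.119, or 0.0397 with the block), and in worms given cholesterol by -0.15 ± 0.13 (adjusted p = 0.500). The other changes were -0.25 ± 0.13 for coq-2 (adjusted p = 0.291), -0.03 ± 0.09 for coq-3 (adjusted p = 0.902) and 0.07 ± 0.11 for clk-1 (adjusted p = 0.794).

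Fasted and fed arrays did not overlap for 3 of 7 genes in deprived worms (fdps-1, coq-1 and coq-2, all lower), where 46.2% of all probe sets did not overlap. In worms given cholesterol this held for 3 of 7 (hmgr-1, fdps-1 and coq-1, all lower) against 57.0% of all probe sets. Over 4 fasted and 4 fed arrays it held for 0 of 7, against 12.9%. The counts over 2 arrays against 2 were thus near those of all probe sets.

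**Figure D2:**
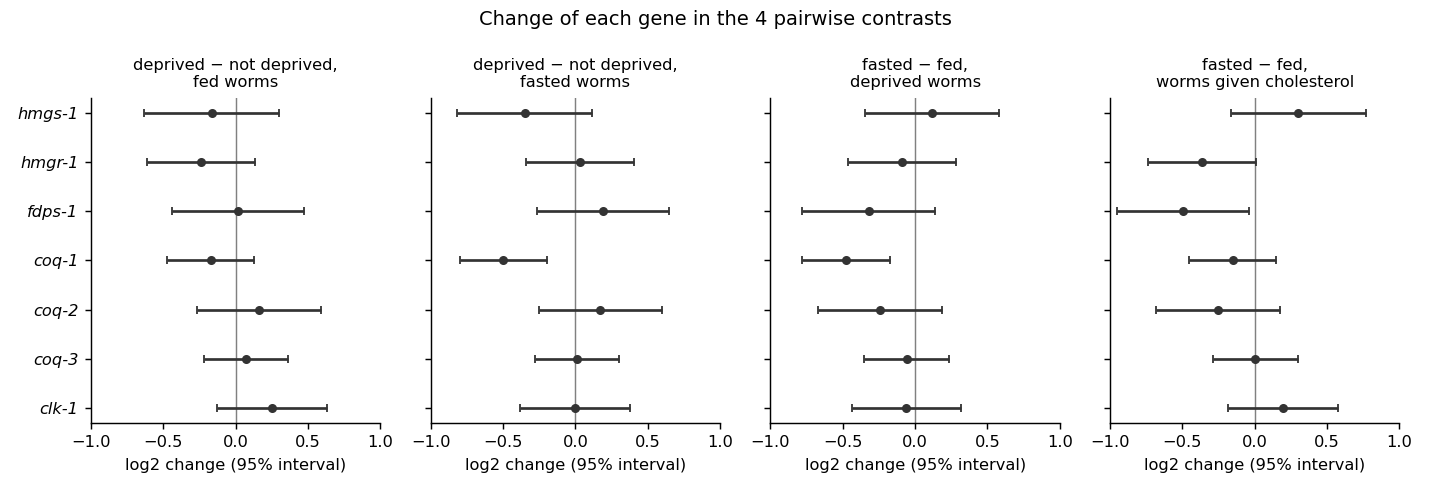
Log2 change of each gene with its 95% interval from the limma fit without the replicate block (horizontal axes) in the 4 pairwise contrasts, n = 2 arrays a group. The intervals that leave out 0 are those of coq-1 for deprivation in fasted worms (-0.50) and for fasting in deprived worms (-0.48), and of fdps-1 for fasting in worms given cholesterol (-0.50), none of them past an adjusted p of 0.05 in this fit.

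Whether fasting acted differently in deprived and undeprived worms was tested with the interaction, the fasting effect in deprived worms minus that in worms given cholesterol. Here 0 of 7 genes passed, against 0.0976% of all probe sets, and at an unadjusted p under 0.05 limma listed 0 of 7, against 10.4%. The interaction was -0.32 ± 0.18 for coq-1 (adjusted p = 0.559), 0.27 ± 0.22 for hmgr-1 (adjusted p = 0.685) and -0.25 ± 0.23 for clk-1 (adjusted p = 0.711). The other 4 genes lay between -0.18 and 0.17.

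The order of the group means differed between the genes. Steps between the sorted means are set beside the SD of single arrays as a description, which is not a test of a difference between means. The mean of coq-1 was lowest in fasted deprived worms at 8.26 ± 0.19 (SD, n = 2), then 8.73 ± 0.11 in fed deprived worms, 8.76 ± 0.03 in fasted worms given cholesterol and 8.91 ± 0.12 in fed worms given cholesterol. Its lowest step, 0.48, was larger than its pooled SD over groups of 0.12, while the middle groups, 0.02 apart, did not differ beyond that SD. The order was fed deprived, fed with cholesterol, fasted deprived and fasted with cholesterol, high to low, for both fdps-1 and coq-2. For fdps-1 the step between the fed pair and the fasted pair, 0.31, was larger than its pooled SD of 0.23, and its other steps of 0.01 and 0.19 were not. For coq-2 no neighbouring step was larger than its pooled SD of 0.21. For hmgs-1 the step below fasted worms given cholesterol, 0.30, and for hmgr-1 the step below fed worms given cholesterol, 0.24, were larger than the pooled SDs of 0.24 and 0.18, and the remaining steps were not. As contrasts in limma neither of these steps passed. The adjusted p was 0.39 for hmgs-1 (fasting in worms given cholesterol) and 0.559 for hmgr-1 (deprivation in fed worms). For coq-3 and clk-1 the highest and lowest group means were 0.07 and 0.25 apart, with pooled SDs of 0.12 and 0.18; for clk-1 the step above fed worms given cholesterol, 0.19, was larger than that SD.

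A second probe set with the coq-1 symbol, the dimmer of the pair, gave 5.67 and 6.25 in fasted deprived worms and 6.26 and 6.67 in fed deprived worms, against 6.52 and 6.28 in fasted worms given cholesterol and 7.25 and 7.37 in fed worms given cholesterol. On it the fed arrays with cholesterol were the highest pair, apart from the other 6. It fell with fasting in the average over cholesterol states (-0.71, adjusted p = 0.0301). Its average change with deprivation, -0.64, did not pass (adjusted p = 0.0726). The direction was that of the first probe set in the averages, but the interaction had the opposite sign, 0.40 (adjusted p = 0.660) against -0.32. In the fit of group means the fall with fasting is thus a call on 1 of 2 probe sets. The first probe set passed for average fasting with cyclic loess (limma, adjusted p = 0.0478) and with the replicate block (0.0260). Values of the second probe set under these alternatives are not given here.

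Markers of body wall muscle moved in the same arrays. The summed intensity of 6 of 6 muscle markers was 1200 to 1325 in fasted deprived worms and 2912 to 3443 in fed deprived worms, against 2759 to 2820 in fasted worms given cholesterol and 4272 to 5172 in fed worms given cholesterol. With deprivation 0 of the 6 fell in fed worms, 3 in fasted worms and 4 in the average, against 1.21%, 1.10% and 4.10% of all probe sets called. With fasting 3 fell in deprived worms, 2 in worms given cholesterol and 4 in the average, against 2.91%, 5.16% and 10.6%. The lowest log2 value of any muscle marker was 4.29, for hlh-1. Its group means, 4.46 to 4.76, lay near the lower quartile of all signals, 4.69. In RNA of whole worms, fewer cells of a type and less RNA per cell cannot be told apart, and the part of muscle in the coq-1 values was not tested. Intestinal markers did not move together. Their sums, to which the brighter markers add most, were 1120 to 1353 in fasted deprived and 2040 to 2438 in fed deprived worms, against 1181 to 1233 in fasted and 2051 to 2106 in fed worms given cholesterol. With fasting in the average 3 of 6 fell, act-5 (-1.58), ges-1 (-1.01) and ifb-2 (-0.97), and 1 rose, pept-1 (0.37). With deprivation pept-1 rose by 1.45 in the average, 1.78 in fed and 1.13 in fasted worms, and the other 5 did not pass. Germline sums ranged over 15320 to 19130 in fasted and 18480 to 21660 in fed worms, over the cholesterol states. Neuronal sums ranged over 4186 to 4496 in fasted and 3596 to 4209 in fed worms. For average fasting 6 of 6 germline markers were lower, of which 1 fell. Of 6 neuronal markers 1 rose, where 10.6% of all probe sets were called in either direction. The part of germline and neurons in the fasting values was likewise not tested.

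**Figure D3:**
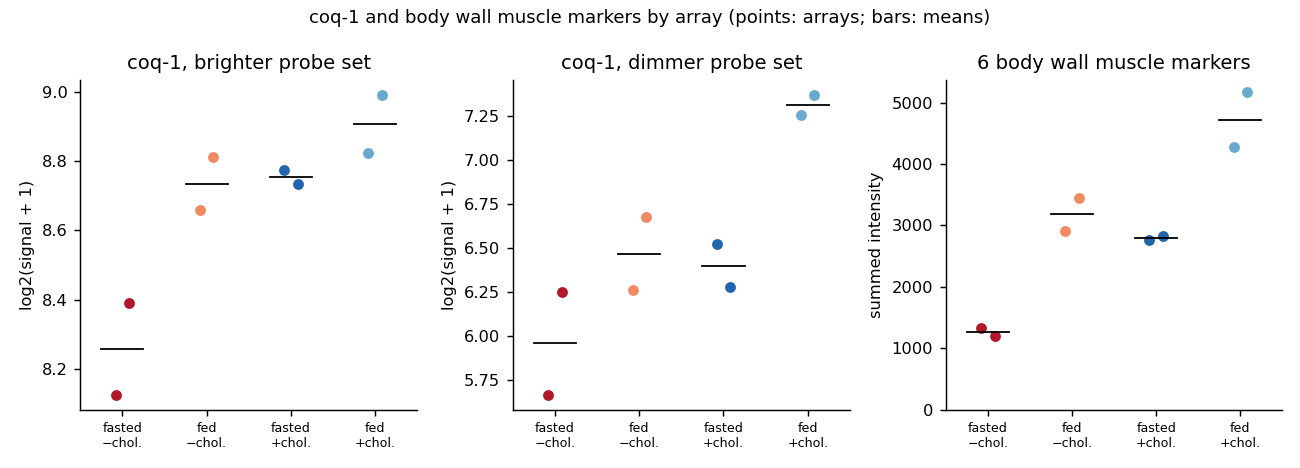
Log2(signal + 1) of both coq-1 probe sets and the summed intensity of 6 body wall muscle markers (vertical axes) in fasted and fed worms without (−chol.) and with (+chol.) cholesterol; points are arrays and bars are means of 2. Fasted deprived worms hold the lowest mean and fed worms given cholesterol the highest in all 3 panels.

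For each of the 7 genes, the genes with the most similar pattern were taken by Pearson's r over the 8 arrays among 17117 others, as a description. The arrays share their groups and their processing, and with so many genes compared high values are common. The closest to coq-1 were twk-18 (r = 0.979) and lipl-5 (r = 0.964), and to hmgr-1 set-14 (r = 0.982) and atfs-1 (r = 0.981). For hmgs-1 they were T10B5.8 (r = 0.984) and saeg-2 (r = 0.981), for fdps-1 Y71G12B.10 (r = 0.984) and cept-2 (r = 0.983). For coq-2 they were trpp-10 (r = 0.987) and tsfm-1 (r = 0.985), and for clk-1 Y34D9A.7 (r = 0.995) and nssp-51 (r = 0.987). The closest to coq-3 reached r = 0.910 (Y62H9A.11) and r = 0.903 (nspd-9).

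Other genes listed with the mevalonate pathway were measured for 7 of 8: kat-1, T02G5.4, T02G5.7, hadb-1, mvk-1, Y48B6A.13 and idi-1. The list is not limited to enzymes particular to that pathway. With deprivation 0 of 7 passed in the average (limma), against 4.10% of all probe sets, and 1 had an unadjusted p under 0.05, against 16.6%. The genes mvk-1, idi-1 and Y48B6A.13, which encode mevalonate kinase, isopentenyl diphosphate isomerase and diphosphomevalonate decarboxylase, differed by 0.13, 0.12 and 0.18. The gene with that unadjusted p was T02G5.7, annotated as an acetoacetyl-CoA thiolase, the first step of the route. Its change with deprivation was -0.37 ± 0.09 in the average (adjusted p = 0.0834, or 0.0205 with the replicate block) and -0.67 ± 0.13 in fasted worms (adjusted p = 0.0761, or 0.0141 with the block). With fasting 1 of 7 rose in the average, against 10.6% of all probe sets called: T02G5.7. Its signal was 10.11 and 10.40 in fasted deprived worms, against 10.01 and 10.13 in fed deprived worms, and 10.84 and 11.01 in fasted worms given cholesterol, against 10.11 and 10.17 in fed worms given cholesterol. The fasted arrays with cholesterol were the highest pair of the 8. T02G5.7 rose by 0.79 in worms given cholesterol (adjusted p = 0.0182), a call lost without any 1 of the 4 arrays compared (adjusted p 0.0623 to 0.113). The average rise of 0.49 (adjusted p = 0.0181) was lost without any 1 of the 4 fed arrays or the fasted cholesterol replicate 2 (adjusted p 0.0514 to 0.0624). With the block Y48B6A.13 passed as well, at -0.28 in the average (0.0312) and -0.39 in worms given cholesterol (0.0455).

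Of the other ubiquinone synthesis genes, coq-4, coq-6 and coq-8 were measured, 3 of 6 listed, and 0 passed in any of the 7 contrasts in limma without the block. At an unadjusted p under 0.05 there was 1, in the average fasting contrast, where 24.9% of all probe sets passed. It was coq-8, an atypical kinase of the route, at 9.62 in fasted and 9.89 in fed worms (-0.27 ± 0.10, adjusted p = 0.135, or 0.0447 with the block). The hydroxylase gene coq-6 differed by -0.18 ± 0.11 (adjusted p = 0.366).

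Genes that use isoprenoids, such as the prenyl transferases of proteins, were measured for 9 of 13 listed. None passed with deprivation in limma, where 2 had an unadjusted p under 0.05 in the average, against 16.6% of all probe sets. In the average fasting contrast 1 of 9 fell, near the 10.6% of all probe sets called. It was ggtb-1, the beta subunit of the Rab geranylgeranyl transferase (-0.45, adjusted p = 0.0489). Its call was lost without any 1 of the arrays other than the fasted cholesterol replicate 2 (adjusted p 0.0802 to 0.145), and also with the bright-set shift, a pseudocount of 16 or an intensity trend. For fasting with cholesterol ggtb-1 differed by -0.62 (adjusted p = 0.0749, or 0.0317 with the block).

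Enzymes that hand electrons to or take them from ubiquinone were measured for 13 of 14 listed. With fasting 2 of 13 rose and 3 fell in the average, against 10.6% of all probe sets called in either direction. With deprivation 1 of 13 fell in the average, against 4.10%. The risers were respiratory chain genes: cyc-1, cytochrome c1 of complex III (0.50, adjusted p = 0.0105), and sdha-1, the flavoprotein of complex II (0.57, adjusted p = 0.0385). The genes that fell were dhod-1, dihydroorotate dehydrogenase of pyrimidine synthesis (-0.48, adjusted p = 0.00993), prdh-1, proline dehydrogenase (-0.48, adjusted p = 0.0315), and sqrd-1, sulfide quinone oxidoreductase (-0.44, adjusted p = 0.0317). With deprivation sqrd-1 fell on average, at 7.22 in deprived and 7.80 in undeprived worms (-0.58, adjusted p = 0.0229). In worms given cholesterol, fasting changed cyc-1 by 0.69 (adjusted p = 0.0188), dhod-1 by -0.57 (adjusted p = 0.0307) and sqrd-1 by -0.64 (adjusted p = 0.0460). With the replicate block 4 of 13 passed upward and 4 downward for average fasting, against 19.6% of all probe sets. For fasting with cholesterol they were 3 and 4 (13.8%), for average deprivation 1 and 1 (9.17%), for deprivation in fed worms 0 and 1 (4.38%). The block added gas-1 (0.48, adjusted p = 0.00245), sdhb-1 (0.27, 0.0429) and chdh-1 (-0.34, 0.0169) for average fasting. For fasting with cholesterol it added gas-1 (0.65, 0.00448), sdha-1 (0.69, 0.00781), prdh-1 (-0.55, 0.0132) and chdh-1 (-0.47, 0.0250). For deprivation it added prdh-1 in the average (0.33, 0.030) and sqrd-1 in fed worms (-0.78, 0.0197).

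Of the calls made without the block, the average fasting calls of cyc-1 and dhod-1 passed under all 14 alternatives. The other calls among these enzymes were lost when single arrays were left out: the average fasting call of sdha-1 without any 1 of 6 arrays (adjusted p 0.0640 to 0.105), and those of sqrd-1 and prdh-1 without any 1 of 7 (0.0642 to 0.108 and 0.0502 to 0.0967). The arrays without which they passed were both second replicates of the fed groups for sdha-1, the fed cholesterol replicate 2 for sqrd-1, and the fasted cholesterol replicate 1 for prdh-1. The deprivation call of sqrd-1 was lost without any 1 of 6 arrays (0.0568 to 0.0809), all but the second replicates of fed worms given cholesterol and of fasted deprived worms. In worms given cholesterol, the call of cyc-1 was lost without any 1 of the 4 arrays compared (0.0620 to 0.122), that of dhod-1 without these or either fed deprived array (0.0541 to 0.140), and that of sqrd-1 without any 1 of 7 arrays, all but the fed cholesterol replicate 2 (0.0618 to 0.182). These 3 calls were also lost with only the compared arrays in the fit, as were dhod-1 and sqrd-1 with an intensity trend and sqrd-1 with cyclic loess, the bright-set shift or a pseudocount of 16. The average calls of sdha-1 with a pseudocount of 16, of sqrd-1 with an intensity trend and of prdh-1 with the bright-set shift were lost too.

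**Figure D4:**
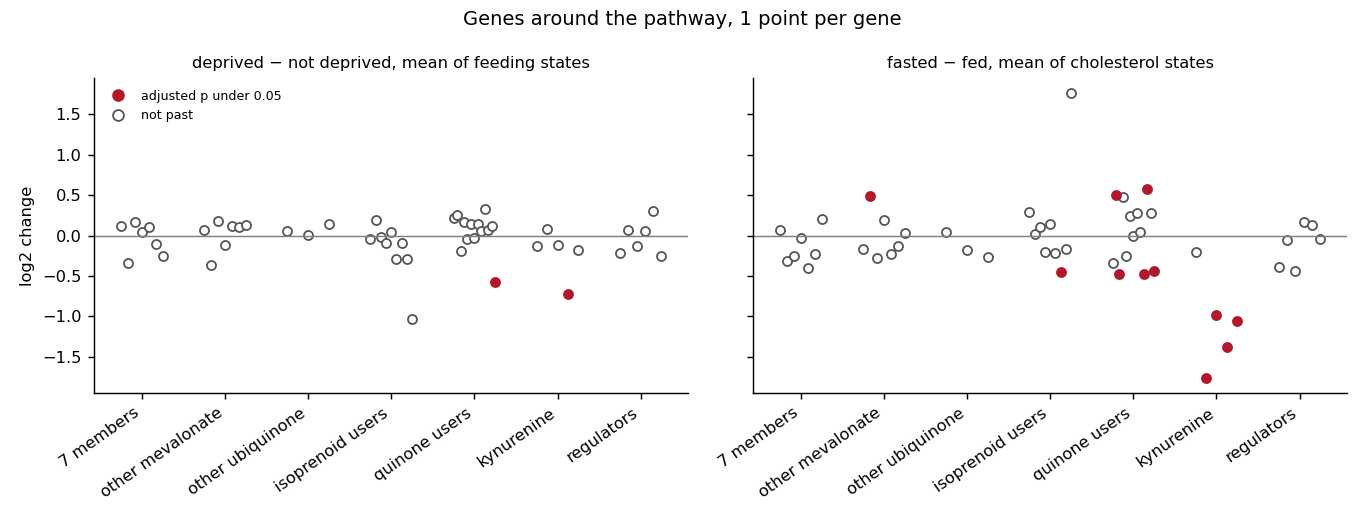
Log2 change, 1 point per gene, of the 7 genes and of 6 lists around them (horizontal axis), for deprivation averaged over feeding states and fasting averaged over cholesterol states; filled points have an adjusted p under 0.05 in the fit without the block. None of the 7 genes is filled, while 4 of the 5 kynurenine genes are filled in the fasting panel, between -1.77 and -0.98.

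COQ-2 also builds rhodoquinone in this nematode, a quinone of anaerobic respiration whose ring comes from tryptophan through the kynurenine pathway. The isoforms that the coq-2 probe set covers are not given in the sources used here. Of the 5 kynurenine genes 4 fell with fasting in each cholesterol state and in the average. Of all probe sets 2.91% were called in deprived worms, 5.16% in worms given cholesterol and 10.6% in the average. The list was chosen with earlier results of these data known, so its count beside these shares is a description. The 4 were tdo-2, tryptophan dioxygenase at the entry of the pathway, kmo-1, kynurenine monooxygenase, kynu-1, kynureninase, which yields the hydroxyanthranilate used for rhodoquinone, and haao-1, the dioxygenase that consumes it. The probe sets of tdo-2, kmo-1 and kynu-1 are of the kind marked as matching more than 1 transcript, so other transcripts may add to their signal. The arylformamidase gene afmd-1 differed by -0.21 ± 0.09 on average (adjusted p = 0.228). In the same arrays 3 of 6 intestinal markers fell and 1 rose with fasting, as given above, and their part in these falls was not tested.

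For kynu-1 the signal was 8.22 and 7.74 in fasted deprived worms, against 9.25 and 9.03 in fed deprived worms, and 8.68 and 8.28 in fasted worms given cholesterol, against 10.09 and 10.07 in fed worms given cholesterol. For tdo-2 it was 8.87 and 8.75 in fasted deprived worms, against 9.86 and 9.53 in fed deprived worms, and 8.82 and 8.81 in fasted worms given cholesterol, against 10.05 and 10.05 in fed worms given cholesterol. All 4 fasted arrays of both genes lay below all 4 fed arrays. The average fall was -1.38 for kynu-1 (adjusted p = 0.00127) and -1.06 for tdo-2 (adjusted p = 0.000637).

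For kmo-1 the signal was 5.52 and 5.89 in fasted deprived worms, against 6.92 and 6.67 in fed deprived worms, and 5.96 and 5.90 in fasted worms given cholesterol, against 6.90 and 6.71 in fed worms given cholesterol. For haao-1 it was 4.71 and 4.62 in fasted deprived worms, against 6.36 and 6.84 in fed deprived worms, and 4.81 and 4.69 in fasted worms given cholesterol, against 6.03 and 6.68 in fed worms given cholesterol. Again no fasted array reached a fed one, and the fasted haao-1 values lay near the lower quartile of all signals, where a fall is understated. The average fall was -0.98 for kmo-1 (adjusted p = 0.00204) and -1.77 for haao-1 (adjusted p = 0.000917). These 4 average calls passed under all 14 alternatives.

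Within a cholesterol state, the falls in deprived worms were -0.89 for tdo-2, -1.09 for kmo-1, -1.16 for kynu-1 and -1.93 for haao-1 (adjusted p 0.00647 to 0.0259). In worms given cholesterol they were -1.24, -0.88, -1.60 and -1.61 in the same order of genes (adjusted p 0.00247 to 0.0243). Leaving out single arrays ended some of these calls in deprived worms: tdo-2 without the fed replicate 1 or the fasted replicate 2 of deprived worms (0.0692 and 0.0966), kmo-1 without the fed deprived replicate 1 (0.0849), and kynu-1 without any 1 of 5 arrays, the 4 fed arrays and the fasted deprived replicate 2 (0.0565 to 0.130). With only the compared arrays in the fit all 3 of these were lost as well. In worms given cholesterol, left-out arrays ended kmo-1 without any 1 of the 4 arrays compared (0.0765 to 0.145) and haao-1 without either fasted array (0.0626 and 0.0674). The interaction passed for 0 of the 5 genes in limma, with 0 at an unadjusted p under 0.05.

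With deprivation 1 of the 5 fell in the average, against 4.10% of all probe sets called: kynu-1 (-0.72, adjusted p = 0.0360). That call was lost with cyclic loess, with a pseudocount of 16 and without any 1 of 6 arrays (adjusted p 0.0615 to 0.129), all but the fasted cholesterol replicate 2 and the fasted deprived replicate 1. In fed worms its change with deprivation was -0.94 (adjusted p = 0.0850, or 0.00848 with the block).

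**Figure D5:**
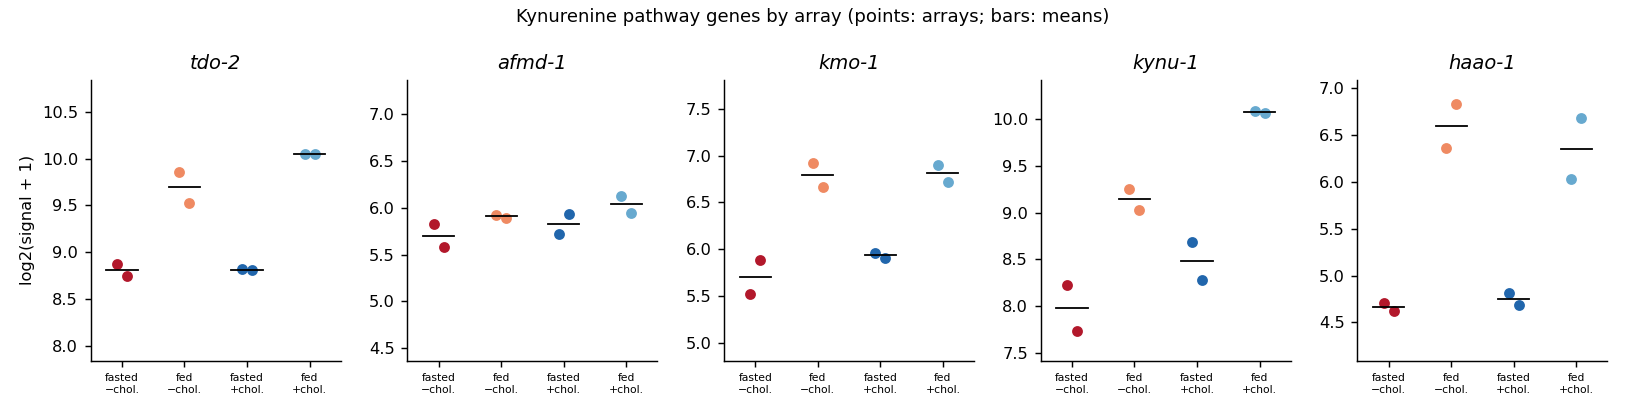
Log2(signal + 1) of 5 kynurenine pathway genes (vertical axes, each spanning 3 log2 units) in fasted and fed worms without (−chol.) and with (+chol.) cholesterol; points are arrays and bars are means of 2. All 4 fasted arrays lie below all 4 fed arrays for tdo-2, kmo-1, kynu-1 and haao-1, and the ranges of all fasted and all fed arrays overlap for afmd-1.

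Of 6 regulators that bear on sterol and mitochondrial stress responses, 0 passed in any of the 7 contrasts in limma without the block. Those with the smallest p were scp-1, the homologue of the sterol sensor SCAP, and sbp-1, the homologue of SREBP. In fed worms scp-1 was at 7.11 in deprived and 7.70 in undeprived worms (-0.58 ± 0.18, adjusted p = 0.215). The average for sbp-1 was 8.81 in deprived and 8.51 in undeprived worms (0.30 ± 0.10, adjusted p = 0.192, or 0.0347 with the block). In these contrasts 2 and 1 of the 6 had an unadjusted p under 0.05, against 13.7% and 16.6% of all probe sets, and in the other contrasts 0 or 1. With the block hsp-60 and atfs-1, of the mitochondrial stress response, passed for average fasting (-0.44 and -0.39, adjusted p = 0.0114 and 0.0472), and hsp-60 for fasting with cholesterol (-0.46, 0.0462).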

How the data were processed

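RNA of 8 samples was hybridised to a 1-colour Affymetrix array. The deposited values are intensities on a linear scale, with 1 value for a probe set on each array, made with RMA per the submitters' processing notes (no version named). RMA equalises the distributions of arrays, so differences in total RNA do not show. Array medians were 66.7 to 70.9. Precision is limited by the number of arrays.

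Of 22625 probe sets, 77 controls were left out. The platform annotation gave 1 symbol to 20766, several to 887 and none to 895; 20701 matched RefSeq genes of WBcel235 by gene number, used for names only. Log2(intensity + 1) was fitted with limma 3.58.1 (R 4.3.3; lmFit, eBayes, 1 mean per group, 4 residual and 3.37 prior degrees of freedom), two-sided, with Benjamini-Hochberg adjustment over 22548 probe sets. This pseudocount understates changes of dim genes. P-values weigh a change against the spread between replicates. In the fit without the block this spread also holds any difference between the replicate numbers. Figures used matplotlib 3.10.9 (Python 3.11.15).

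The 7 genes and the lists, which come from textbook knowledge, were chosen with earlier results of these data known. All 7 were named in every contrast; of each list, every gene past the threshold, or up to 2 with the smallest p; and 2 similar genes each. Alternatives were cyclic loess, shifting arrays to an equal median over the brightest probe sets (bright-set shift), the replicate number as a block, a pseudocount of 16, leaving out the dimmest 40%, an intensity trend, only the arrays compared, each array left out, and the other coq-1 probe set. The groups share replicate numbers 1 and 2 in the sample titles, with no shared day or culture named. Differences between the replicates correlated across probe sets in all pairs of groups (r = 0.218 to 0.530), so the numbers were taken to pair the samples. This reading was settled with the blocked calls already known. The printed SEs, intervals and calls are from the fit without the block unless the block is named, and so leave this pairing out. For the 7 genes and the pathway lists the blocked value is printed where it changes the call. Tissue markers and the second coq-1 probe set are given without the block. The rerun of list genes was added after seeing the data.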

Additional observations from a re-analysis of the deposited data

How the results depend on the processing

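Of 721 values of the 7 genes under the alternatives, 673 kept direction and side of the threshold, 7 passed it where the reported value did not, 41 changed sign and 0 lost a call. With the replicate block, 1 of the 7 genes passed for the average of deprivation (coq-1, adjusted p = 0.0345), 1 for fasting with cholesterol (fdps-1, 0.0253), 1 for fasting in deprived worms (coq-1, 0.0397) and 2 for average fasting (fdps-1, 0.00941, and coq-1, 0.0260). It moved the calls over all probe sets in the 7 contrasts to between 115 and 4409, against 22 to 2398 without it. Among the other pathway genes it added 20 calls and lost 0; it changed no other call of the 7 genes. For average fasting, cyclic loess and the other coq-1 probe set gave 1 each.

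Changed signs beside left-out arrays were those of values near 0, besides that of the other coq-1 probe set: deprivation in fasted worms with cyclic loess and bright-set shift, hmgr-1 -0.0265 and -0.0161, coq-3 -0.0260 and -0.0367; average fasting with bright-set shift, coq-3 0.0265; interaction with cyclic loess and bright-set shift, coq-2 -0.0768 and -0.0655; interaction on the other probe set, coq-1 0.40. The bright-set shift moved the median of all probe sets to 0.17 for fasting with cholesterol and to -0.14 for the interaction.

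For values whose sign changed when single arrays were left out, the lowest and highest log2 changes follow. Values that kept their sign without every single array are not listed. Deprivation in fed worms: hmgs-1 -0.39 to 0.0579, fdps-1 -0.24 to 0.27, coq-2 -0.0920 to 0.41, coq-3 -0.0709 to 0.21. In fasted worms: hmgr-1 -0.16 to 0.22, clk-1 -0.0830 to 0.0757, coq-3 -0.0206 to 0.0399. Average: fdps-1 -0.0252 to 0.23, coq-3 -0.0306 to 0.11. Fasting with cholesterol: coq-3 -0.14 to 0.15. Fasting in deprived worms: coq-3 -0.13 to 0.0122, hmgr-1 -0.28 to 0.10, hmgs-1 -0.0205 to 0.25, clk-1 -0.23 to 0.11. Average fasting: coq-3 -0.0982 to 0.0447, clk-1 -0.0219 to 0.16. Interaction: hmgs-1 -0.41 to 0.0400, coq-2 -0.24 to 0.26, coq-3 -0.21 to 0.0805, fdps-1 -0.0794 to 0.43. Where a group was left with 1 array, that array was assumed to vary like the other groups. The cause of these changes was not tested. Of 25 calls of other pathway genes, 9 passed under every alternative and 16 were lost under at least 1.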

Other observations

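The probe set of icmt-1, isoprenylcysteine carboxyl methyltransferase of prenylated proteins, differed between replicates and was singled out after its values were seen. It read 7.58 and 7.44 in fasted deprived worms and 6.12 and 4.85 in fed deprived worms, against 8.52 and 8.06 in fasted worms given cholesterol and 8.84 and 4.71 in fed worms given cholesterol. The gap of 4.12 between the fed arrays with cholesterol was the largest of all 22548 probe sets for that pair, and the only one over 3; the median gap there was 0.14.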
